A study of Mus musculus with 16 samples.

Results

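In bone marrow-derived macrophages, 424 chromatin regions were listed as open only when the LXR agonist T0 was present. They made up 1.13% of the 37648 regions formed by merging the ATAC-seq peaks of 4 treatment groups wherever peaks shared at least 1 bp. A region was selected on the peak calls themselves: it held a peak in the T0 list, the T0-LPS list or both, and none in the Veh or LPS list. The presence of those peaks is therefore the rule and not a finding. Of the 424 regions, 110 had a peak in T0 only, 296 in T0-LPS only and 18 in both lists. Thus 14.1% of the selected regions with a T0 peak also held a T0-LPS peak, and 5.73% of those with a T0-LPS peak also held a T0 peak. Over all regions these shares were 92.3% and 88.3%, but all regions include those with a peak in every list, which the rule leaves out. In the reverse pattern (a Veh or LPS peak, none in T0 or T0-LPS), 29.1% of regions with a Veh peak also held an LPS peak. Of those with an LPS peak, 56.8% also held a Veh peak.

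ATAC-seq reads open chromatin as sites where the Tn5 transposase can insert adaptors. The cells were macrophages grown from the bone marrow of C57BL/6J mice, in 16 libraries of 50000 cells, with 4 libraries in each group. The mice were young adult females, and whether each library came from a separate animal was not given in the sources used here. The Veh group received DMSO and the T0 group the synthetic agonist T0901317 at 500 nM, both for 3 h. The LPS and T0-LPS groups had the same DMSO or T0 treatment for 3 h. Lipopolysaccharide at 10 ng/mL was then added to that medium for a further 2 h, so T0-LPS cells had T0 for 5 h. Groups with LPS were therefore also harvested at 5 h in place of 3 h. The effects of LPS, of culture time and of longer exposure to T0 cannot be told apart. The authors called peaks on the 4 libraries of a group pooled and kept only peaks at macrophage enhancers marked by H3K27ac or H3K4me2. Each group thus gives 1 list, no value below has a replicate check, and no test between groups was possible. Intervals in parentheses are Wilson 95% intervals, which cover counting error only. The depth of the libraries is unknown.

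The liver X receptors are nuclear receptors that bind oxysterols and pair with RXR on DNA, typically on 2 copies of the hexamer AGGTCA spaced by 4 bases, a layout called DR4. In macrophages, agonists such as T0 induce genes of cholesterol efflux, among them the transporters Abca1 and Abcg1, and of fatty acid synthesis and desaturation. LPS acts through TLR4 and activates NF-kB, AP-1 and interferon regulatory factors, which can open enhancers at inflammatory genes.

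DR4 sequences were looked up in the GRCm38 genome, and those of 3 selected regions came within 1 mismatch of the consensus in its 12 fixed bases. They are shown because DR4 is the element that LXR is known to bind. Each line gives the plus strand, with the DR4 match in capitals. The first is in an intron of Abcg1 (chr17:31075638-31075787) and reads AGGTTAATGTAGGTCA. The other two lie between genes and match on the minus strand, one nearest Gm572 (chr4:148676743-148676892) and one nearest Gm26761 (chr5:64676452-64676601).
Abcg1: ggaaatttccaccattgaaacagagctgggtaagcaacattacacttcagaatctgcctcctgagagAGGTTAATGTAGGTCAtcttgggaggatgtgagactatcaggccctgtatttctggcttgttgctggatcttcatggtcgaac
Gm572: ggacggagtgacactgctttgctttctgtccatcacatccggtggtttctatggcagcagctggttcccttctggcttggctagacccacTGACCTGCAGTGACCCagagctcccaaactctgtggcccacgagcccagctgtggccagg
Gm26761: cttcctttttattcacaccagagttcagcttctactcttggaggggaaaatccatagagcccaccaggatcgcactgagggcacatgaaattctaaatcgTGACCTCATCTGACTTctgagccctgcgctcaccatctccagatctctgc

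The region downstream of Scd2 (chr19:44314901-44315175, plus strand) is shown for contrast, as its scores changed most like those of the Abcg1 region. It held no AGGTCA, and its closest DR4 had 3 mismatches, so no base is in capitals.
Scd2 downstream region: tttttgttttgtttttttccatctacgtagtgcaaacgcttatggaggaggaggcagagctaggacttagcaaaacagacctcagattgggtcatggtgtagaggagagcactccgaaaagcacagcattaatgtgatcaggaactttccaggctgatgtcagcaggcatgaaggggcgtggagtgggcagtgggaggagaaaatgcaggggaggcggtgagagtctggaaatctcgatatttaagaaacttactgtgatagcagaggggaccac

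A pair of regions of the T0-LPS only class show matches to the NF-kB consensus, which is in capitals. One is at the promoter of the chemokine gene Ccl5 (chr11:83530554-83530653, plus strand) and the other in an intron of Bcl2a1d (chr9:88725441-88725540, plus strand), a gene of the anti-apoptotic A1 group.
Ccl5: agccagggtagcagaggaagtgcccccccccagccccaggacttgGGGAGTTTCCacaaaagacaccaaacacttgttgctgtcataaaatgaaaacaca
Bcl2a1d: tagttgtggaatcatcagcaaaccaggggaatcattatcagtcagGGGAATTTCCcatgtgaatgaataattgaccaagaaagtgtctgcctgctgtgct

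The cells carried open promoters of macrophage genes. A peak lay within 1 kb of the TSS of Spi1, Cd68, Itgam, Adgre1 and Lyz2 in all 4 lists. At Csf1r, which encodes the M-CSF receptor, such a peak was in the Veh and LPS lists but not in those with T0. Its peak caller scores of 169 (Veh) and 145 (LPS) were below the list medians of 372 and 319. Genes of other lineages (Cd3e, Ly6g, Alb, Myod1 and Neurod1) had no such peak in any list.

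The selected regions were few beside those of the opposite pattern. Regions with a Veh or LPS peak and none in T0 or T0-LPS numbered 5009, or 13.3% of all regions, which is 11.8 for each selected region. There were 26.5 Veh only regions for each T0 only region, and 3.06 LPS only regions for each T0-LPS only region. The lists also differed in length, with 35551 Veh, 29839 T0, 33181 LPS and 31085 T0-LPS peaks. When each list was shortened to its 29839 highest-scoring peaks before merging, the selected regions rose to 1630, with 754 T0 only, 643 T0-LPS only and 233 in both. That setting drops the weakest Veh, LPS and T0-LPS peaks, so the number of regions open only with T0 depended on where the lists end.

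Peaks that chose the regions were mostly weak in their own list. The score is the authors' peak caller score, which grows with the strength of a peak and with depth, and a percentile is the share of peaks in the same list with a lower score. The T0 only regions had scores of 41 to 509 with a median of 96, while the median of the whole T0 list was 305. The T0-LPS only regions had scores of 32 to 639 with a median of 90, against a list median of 292. Of these, 80 of 110 (72.7%) and 207 of 296 (69.9%) lay in the lowest decile of their list, and only 4 and 16 reached the median of the list. In the class both, the median score was 114.5 for the T0 peaks and 106 for the T0-LPS peaks. The median width was 190 bp for T0 only, 203 bp for T0-LPS only and 252 bp for both. The opposite set was weak and narrow too. Of its Veh only and LPS only regions, 52.5% and 63% lay in the lowest decile of their list, and the median widths were 211 and 210 bp, and 254 bp for regions with both peaks.

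**Figure D1:**
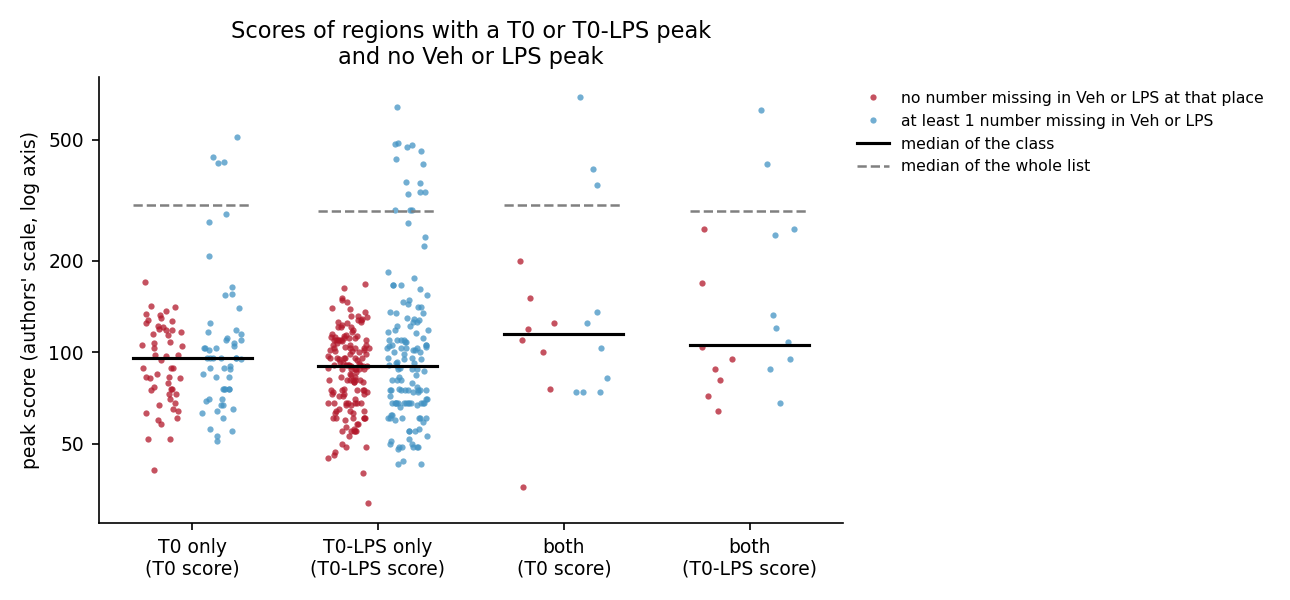
Peak score (log axis, the authors' scale) of each selected region, by class and by the list the score comes from. Red points have no missing number in the Veh and LPS lists between the flanking peaks, and blue points have at least 1. Black lines are class medians and dashed lines the medians of the whole lists (305 for T0 and 292 for T0-LPS). In the classes with 1 peak, all points at 200 or above are blue.

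Peak names carry running numbers. A number missing from the Veh or LPS list was taken to mark a called peak that the enhancer filter took out. Missing numbers were counted between the nearest kept peaks on either side of a region. Those can be many kb apart, so a removed peak may have lain at the region or elsewhere between them. Of 423 regions with a Veh and an LPS peak on either side, 213 (50.4%, 45.6 to 55.1%) had no missing number in either list. Among the 29 whose score was at least 200 (the lower of the 2 scores in the class both) there was none without a missing number, which allows a share of up to 11.7%. Below that score the share was 54.1% (49.1 to 58.9%). In the opposite set, counted in T0 and T0-LPS, it was 24.5% (20.2 to 29.5%) at 200 or above and 57.9% (56.5 to 59.3%) below. At 200 or above it was 32.3% for Veh only, 4.65% for LPS only and 5.77% for regions with both peaks. In 10 of the 29 strong regions, every list without a peak lacked exactly 1 number between its flanking peaks. The same held for 26 of 394 weaker regions (6.6%). The absence of a strong region from the Veh or LPS list therefore cannot be told apart from removal by the filter. Counting the higher of the 2 scores in the class both, 32 regions reached 200 and 2 of them had no missing number. They lay in an intron of Cpq and downstream of Scd2.

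The selected regions were close to other peaks. The gap to the nearest Veh or LPS peak was 1 to 687855 bp, with a median of 1952 bp, and was at most 500 bp in 129 of 423 regions (30.5%, 26.3 to 35.0%). The same distance to a T0 or T0-LPS peak was found for 19.9% of the opposite set, but those lists are shorter. A region of any kind lay within 500 bp of 31.2% (27 to 35.8%) of the selected regions. In the opposite set this was 24.8% (23.6 to 26%), and in all regions 17.7%. The median gap to the next region was 1831 bp for the selected regions, 2277 bp for the opposite set and 3981 bp for all regions. The regions just inside the rule were those at Gm23466 (T0-LPS score 49), Hsd17b12 (75) and Hspa4l (T0 score 56), with gaps of 1, 4 and 6 bp to a Veh or LPS peak. Just outside it were a region at Tmem246, where a T0-LPS peak with a score of 61 shared 15 bp with a Veh peak of 91, and a region at AC109138.11, where a T0 peak of 62 shared 52 bp with a Veh peak of 110.

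The class both held the regions called with T0 in the absence and in the presence of LPS. Ranked by the lower of the 2 scores, the first was in an intron of Musk, which encodes a receptor tyrosine kinase of the neuromuscular junction, with scores of 689 (T0) and 624 (T0-LPS). Next came an intron of the zinc finger gene Gzf1, with 400 and 417, and an intron of Pik3cg, the catalytic subunit of PI3K gamma, with 354 and 255. All 3 had missing numbers in the Veh and LPS lists. An intron of Cpq, a carboxypeptidase gene, scored 200 with T0 and 169 with T0-LPS, and no number was missing. The regions at Clns1a (125 and 133), Gm16565 (136 and 120), Ankrd13a (110 and 104), Gm15519 (151 and 95) and 4930556J24Rik (103 and 88, tied with Ttc7b at 119 and 88) were weaker, T0 given before T0-LPS. By the same rank the region downstream of Scd2 was among the 10 highest, while by the higher score the Abcg1 region would be too.

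The T0 and T0-LPS lists differ in length, with 29839 and 31085 peaks, so that equal percentiles are not the mark of an unchanged peak and small differences between them were not read. Over the 18 regions the difference in percentile, T0-LPS minus T0, ran from -13.6 to 40.1 percentage points. A pair of regions had the largest values. In the intron of Abcg1 the T0 peak scored 74, at percentile 1.59, and the T0-LPS peak 242, at percentile 41.7. Downstream of Scd2 the T0 peak scored 100, at percentile 6.18, and the T0-LPS peak 255, at percentile 43.8. Next came the region upstream of Kif26a, at percentile 1.59 in T0 and 9.95 in T0-LPS. At the other end were Gm15519, at 19.8 and 6.29, and Pik3cg, at 56.9 and 43.8.

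**Figure D2:**
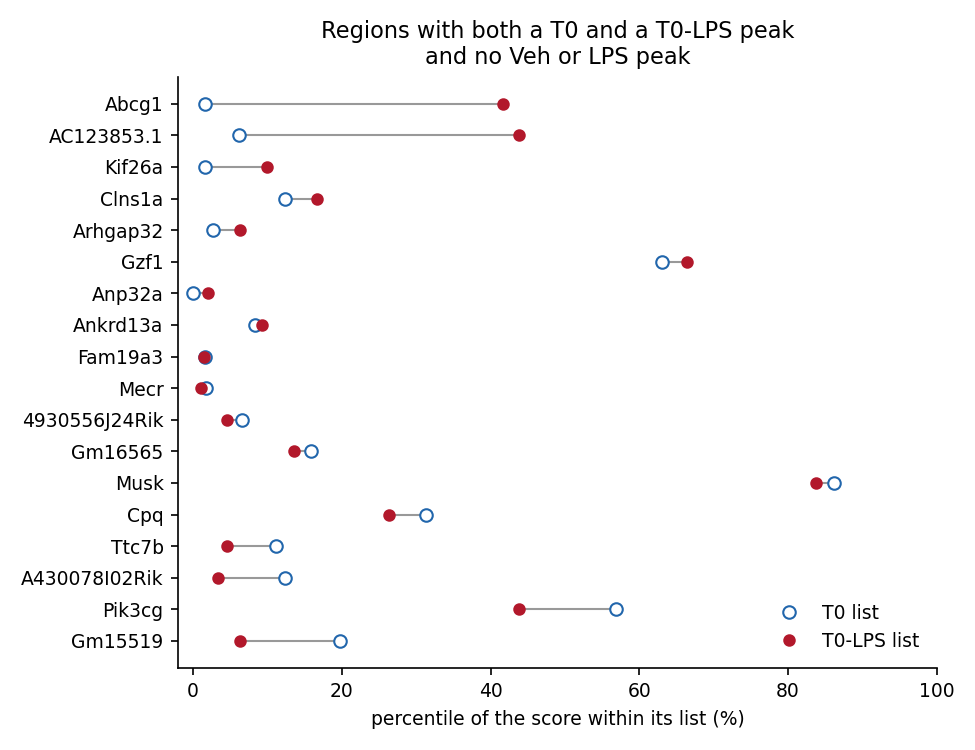
Percentile of the score within the T0 list (open blue circles) and the T0-LPS list (red circles) for the 18 regions with a peak in both and none in Veh or LPS, ordered by the difference. Abcg1 and AC123853.1, the non-coding gene that holds the region downstream of Scd2, stood 40.1 and 37.6 percentage points higher in T0-LPS, and the other 16 differed by at most 13.6. The lists differ in length, so small differences are not read.

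Abcg1, which moves cholesterol to HDL, lies on the plus strand of chromosome 17 (31057675 to 31117988) and had 8 regions within 100 kb of its TSS. The selected region (chr17:31075461-31075809) lay in an intron, 17960 bp downstream of the TSS. Between its flanking peaks the Veh list lacked 2 numbers and the LPS list 1, and the nearest Veh peak was 8061 bp away. Another pair of regions had peaks in every list but LPS. The one 1165 bp downstream of the TSS scored 80 under vehicle, 159 with T0 and 110 with T0-LPS. The one 3193 bp downstream scored 170 under vehicle, 78 with T0 and 92 with T0-LPS. A region 9591 bp downstream was in all lists, with scores of 235 (Veh), 221 (T0), 234 (LPS) and 256 (T0-LPS). At the TSS itself, -9 bp from it, there was a Veh peak of 90 and none in the other lists.

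Scd2, a stearoyl-CoA desaturase gene that makes monounsaturated fatty acids, lies on the plus strand of chromosome 19 (44293674 to 44306864) with its relative Scd1 near by. Of its 13 regions within 100 kb, 3 were open only with T0. The region 21364 bp downstream of the TSS, in an intron of the non-coding gene AC123853.1, had no missing number in Veh or LPS. It lay 123 bp from the nearest Veh peak and 103 bp from the nearest LPS peak. That neighbouring region, 20910 bp from the TSS, scored 417 (Veh), 442 (T0), 250 (LPS) and 418 (T0-LPS), and its percentile was lowest in LPS, at 38.9. A second region (chr19:44294775-44294992) lay in an intron of Scd2, 1209 bp from the TSS, with a T0-LPS score of 91 and no missing number in the other lists. The third (chr19:44363395-44363761) was intergenic, nearest Scd4 and 69904 bp from the Scd2 TSS, with a T0-LPS score of 223 and 2 missing numbers in each of the other lists. With the windows used, this region and the one in AC123853.1 also counted for Scd1, whose TSS was 44301 and 92841 bp away.

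**Figure D3:**
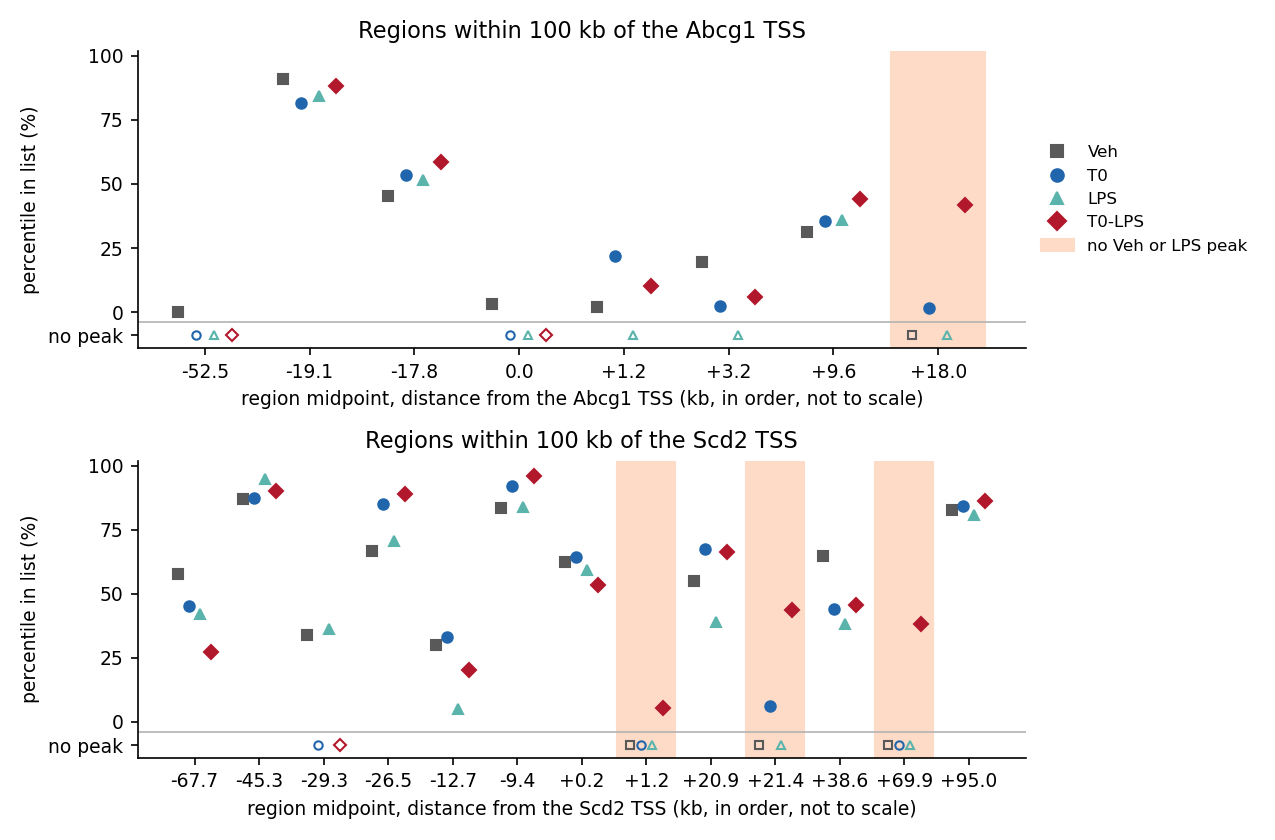
Percentile of the score within each list for the regions within 100 kb of the TSS of Abcg1 (8 regions, top) and Scd2 (13 regions, bottom), in order of distance from the TSS in kb. Open symbols under the line mark lists without a peak, and shaded columns the regions with no Veh or LPS peak, of which Abcg1 had 1 and Scd2 had 3.

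Of 34 genes tied to LXR, 5 had a selected region within 100 kb of the TSS (14.7%, 6.45 to 30.1%). Over all 21938 protein-coding genes the share was 7.12%, and over the 4805 genes with a like number of regions in the window (8 to 12) it was 12.3%, so the share of LXR genes was near the background. In the list of efflux and lipoprotein genes it was Abcg1 of 12, and Abca1 and Apoe had none. In the list of lipogenic and phospholipid genes it was Scd1 and Scd2 of 12, and Srebf1 and Fasn had none. In the list of other linked genes, 2 of 10 had one. Rara, the retinoic acid receptor alpha gene, had a T0 only region with a score of 127 in an intron (chr11:98943478-98943654), 15748 bp from the TSS, with no missing number in the other lists. Smpdl3a, which encodes a secreted phosphodiesterase, had a T0-LPS only region with a score of 126 in an intron of Pkib (chr10:57714346-57714567), 79879 bp upstream of the TSS. None of 12 genes of sterol synthesis and uptake, which SREBP2 controls, had a selected region near by. The opposite pattern was more common at LXR genes too, with such a region near 25 of the 34 and near 45% of all protein-coding genes. That 45% is not matched for the number of regions per gene, whose median was 11 for the LXR genes and 5 for all.

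Genes of the inflammatory response were looked up in the same way, beside the same 7.12% of all protein-coding genes. That background is not matched for the number of regions of any kind near a gene. The median was 11 for inflammatory, 14.5 for NF-kB, 9 for interferon-stimulated and 12 for lineage-determining genes, against 5 for all. Over genes with 8 to 12 regions the share was 12.3%. Of 30 inflammatory genes 1 had a selected region within 100 kb (3.33%, 0.591 to 16.7%), which was Ccl5, an interval that holds the background, and 22 had one of the opposite set. The Ccl5 region (chr11:83530506-83530682) lay 76 bp upstream of the TSS, with a T0-LPS score of 55, at percentile 0.364, and no missing number in the other lists. Among 12 subunits and inhibitors of NF-kB, 2 had one (16.7%, 4.70 to 44.8%). Tnfaip3, which encodes the inhibitor A20, had a T0-LPS only region in an intron (chr10:19014556-19014769). It scored 85 and was centred 995 bp past the TSS. Nfkbie had one in an untranslated region of Spats1, with a score of 121, 80830 bp from its TSS. Among 15 interferon-stimulated genes it was 1 (6.67%, 1.19 to 29.8%), Stat2, with a score of 96 in an exon of Spryd4. All of these regions were absent from the T0 list, and none had a missing number in Veh, T0 or LPS. Of 13 lineage-determining genes 4 had one (30.8%, 12.7 to 57.6%). Cebpb (91), Egr1 (168) and Egr2 (74) had a T0-LPS only region, scores in parentheses, and Irf8 a T0 only region with a score of 76 in the overlapping gene Gm20388. Among the housekeeping genes, Rpl13a had a T0-LPS only region with a score of 88.

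The strongest T0 only regions lay mostly away from annotated promoters. They were nearest Gm19901 with a T0 score of 509, in an intron of Plscr4, a phospholipid scramblase gene, with 437, in an intron of Zfp532 with 422, and in an exon of Gm37542 with 420. Those at Hfe, which regulates iron uptake, and Cluap1, a gene of ciliary transport, had scores of 284 and 268. Gm18134 (207), Gm23899 (170), Fars2 (164) and Glipr1 (155) completed the 10 highest. Of the 10, the region at Gm23899 alone had no missing number in Veh and LPS. Its nearest TSS was 33768 bp away. The region at Plscr4 was 268 bp from a Veh peak and those of the other 9 at least 462 bp.

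The highest score among T0-LPS only regions was at a metabolic transporter gene. That region lay in an intron of Slc7a11, the cystine and glutamate exchanger, with a T0-LPS score of 639 at percentile 84.8, and 2 numbers were missing in each of the other lists. It was followed by an intron of Bcl2a1d (486), the sequence upstream of Mtus1 (485), an intron of the lipid kinase gene Pi4kb (478), and the surroundings of Gm12708 (474) and Vps26c (459). An intron of the transporter gene Slco3a1 had 432. The promoters of Utp14a and Fam71f1, at -102 and -51 bp from the TSS, had 416 and 363, and 4933434M16Rik had 359. At Pi4kb, Gm12708, Vps26c, Slco3a1, Utp14a and Fam71f1 each of the other 3 lists lacked exactly 1 number. At Bcl2a1d no number was missing in Veh and T0, and 1 was missing in LPS.

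Position in the genome was not used by the rule. The midpoint lay within 1 kb of a TSS in 153 of 422 selected regions on the main chromosomes (36.3%, 31.8 to 40.9%; 2 more were on unplaced contigs), close to the 37.9% of all regions. The share was 30.9% (23.0 to 40.1%) for T0 only, 38.8% (33.4 to 44.5%) for T0-LPS only and 27.8% (12.5 to 50.9%) for both. It was 26.1% (24.9 to 27.3%) in the opposite set and 18.4% (16.2 to 20.9%) in the 1011 regions with an LPS and a T0-LPS peak only. The selected regions were less often right at the TSS, with 18.0% (14.6 to 22%) within 250 bp against 28.8% of all regions. From 250 to 500 bp lay 9.18% (6.39 to 13%) of the T0-LPS only regions and from 500 bp to 1 kb 11.9% (8.69 to 16.1%), against 3.92% and 5.16% of all regions. The LPS only regions were alike in this, with 6.17% (4.79 to 7.93%) and 10.3% (8.44 to 12.4%), intervals that overlapped those of the T0-LPS only class. Introns held 49.3% of the selected regions (44.6 to 54.0%) and 46.5% of all regions. In the class both, 13 of 18 were intronic (72.2%, 49.1 to 87.5%).

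**Figure D4:**
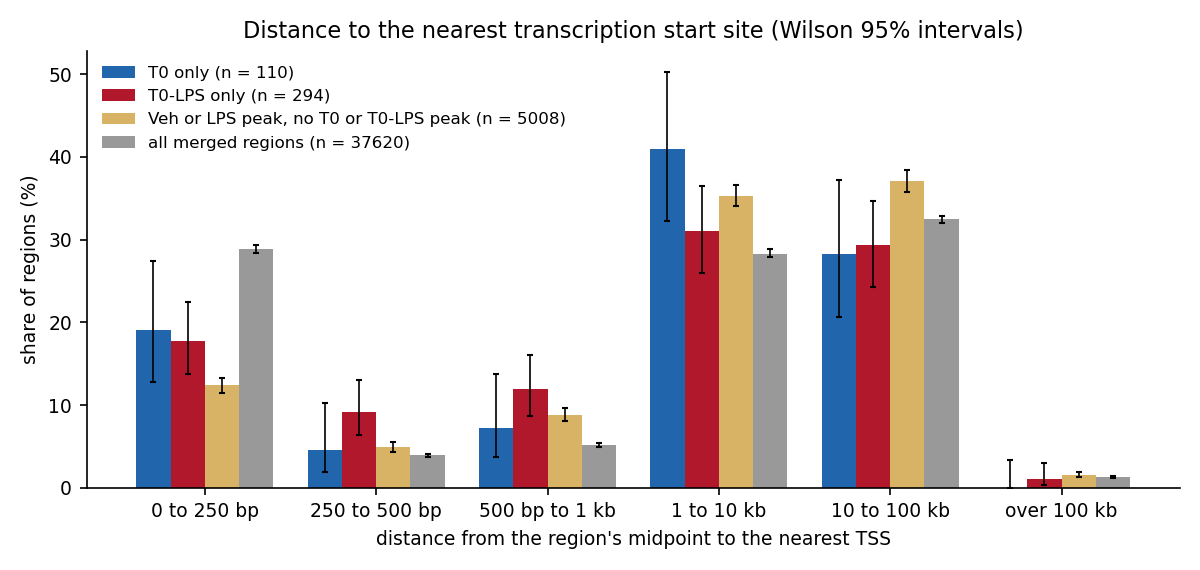
Share of regions (%) by the distance from the region's midpoint to the nearest TSS, with Wilson 95% intervals as bars, for T0 only, T0-LPS only, the opposite set and all regions. Within 250 bp the T0 only (19.1%) and T0-LPS only (17.7%) regions lay below all regions (28.8%) and above the opposite set (12.4%).

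A few regions at TSSs are given as examples, chosen after their values were seen and with no count behind them. T0-LPS only regions lay at -13 bp from the TSS of Tlr7, an endosomal RNA sensor, with a score of 125, at -37 bp from Fcgr4, an Fc receptor gene, with 96, and at -4 bp from Itgal, an integrin gene, with 95. At these 3 no number was missing in any other list. T0 only regions lay 13 bp from the TSS of Cd84 with a score of 107 and 29 bp upstream of that of Dcstamp, which is needed for cell fusion, with 83. The numbering lacked 3 Veh and 2 LPS peaks around Cd84, and no Veh or LPS peak around Dcstamp. The percentiles of these T0-LPS only regions were at most 14.5.

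The AGGTCA hexamer, the nuclear receptor half-site, was searched on both strands in the central 200 bp. It was found in 70 of 422 selected regions (16.6%, 13.3 to 20.4%) and in 11.9% of all regions. The share was 20.0% (13.6 to 28.4%) in T0 only, 15.3% (11.6 to 19.9%) in T0-LPS only and 3 of 18 in both, against 12.4% (11.5 to 13.3%) in the opposite set. In T0 only regions within 1 kb of a TSS it was 10 of 34 (29.4%, 16.8 to 46.2%), against 7.82% of all regions so placed, while farther away it was 15.8% (9.27 to 25.6%) against 14.4%. The T0-LPS only regions near a TSS had it in 11.4% (6.79 to 18.5%). In all regions with scores below 200 in every list, the share was 12.4%. The comparison with all regions depended on the window searched. Regions in all 4 lists had a median width of 482 bp, so a whole region is a longer window there than in the selected regions. With the whole region searched, 17.8% of the selected regions and 23.6% of all regions held the hexamer, so the direction turned.

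DR4 with up to 2 mismatches (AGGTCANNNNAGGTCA) was in 10 of 422 selected regions (2.37%, 1.29 to 4.31%) and in 1.95% of all regions, which lay inside that interval. With the whole region searched it was in 4.47% of all regions and 2.37% of the selected ones. An exact copy of DR4 also counts as a half-site. Of the 10, 2 were T0 only, 6 T0-LPS only and 2 both, the last at Abcg1 and Ttc7b. With at most 1 mismatch, 3 of 422 had it (0.711%, 0.242 to 2.07%), against 0.175% of all regions and 0.140% of the opposite set (0.0677 to 0.288%). The regions at Gm572 and Gm26761, whose sequences are given above, had T0-LPS scores of 129 and 68. Neither had a missing number in Veh, and each had 1 in LPS. Direct repeats with other spacers, searched in the same way for 0 to 8 bases, were in 1.18 to 3.55% of the selected regions and 1.78 to 2.55% of all regions. The spacer of 4 was thus not the most frequent. In T0 only regions the spacer of 5 was found most, in 6 of 110 (5.45%, 2.52 to 11.4%), against 1.84% of all regions.

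NF-kB matches were found mostly in the T0-LPS only class, in 26 of 294 T0-LPS only regions (8.84%, 6.11 to 12.6%) and 2 of 110 T0 only regions (1.82%, 0.5 to 6.39%), against 4.31% of all regions. In regions with an LPS and a T0-LPS peak only the share was 25.3% (22.7 to 28.0%). In LPS only regions it was 10.7% (8.85 to 12.9%), and that interval overlapped the one of the T0-LPS only class. With the whole region searched, NF-kB was in 10.5% of T0-LPS only and 0.909% of T0 only regions. Together the selected regions had 8.06%, against 8.46% of all regions. In T0-LPS only regions with no missing number in Veh and LPS the share was 6.00%. Regions with a match included those at Ccl5, Bcl2a1d, Parp8, Traf6, Tirap and Il13ra1, which are picked examples and not a ranked list. Others lay at Gm20513, Hyal2, Lamp1, Bcor, Gtdc1, Dock4 and Mov10, and a shared function of the genes was not tested. Parp8, with a score of 336, also held DR4 matches with 2 mismatches.

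Of the other motifs, AP-1 had a lower share than in all regions and CTCF a higher one. For PU.1, C/EBP and the interferon response element, the interval of the selected regions held the share of all regions. Among all regions with scores below 200 in every list, AP-1 was in 11.9% and PU.1 in 7.82%. In those weak regions C/EBP was in 11.1% and the interferon response element in 4.66%. The AP-1 motif TGACTCA was in 8.53% of the selected regions (6.23 to 11.6%), below the 13.4% of all regions and the 13% of the opposite set. Within 1 kb of a TSS the share was 3.92% (1.81 to 8.29%) against 4.41%, and farther away 11.2% (7.92 to 15.5%) against 18.9%. The PU.1 motif GAGGAAGT, of the factor that defines the macrophage lineage, was in 6.87% (4.83 to 9.70%) against 8.55%, and in 4 of the 18 regions of the class both. The C/EBP motif TTGCNNAA was in 9% (6.63 to 12.1%) against 10.7%. It was in 4.55% (1.96 to 10.2%) of T0 only and 10.2% (7.24 to 14.2%) of T0-LPS only regions. The interferon response element GAAANNGAAA was in 5.45% (3.66 to 8.05%) against 3.79% (5.92% against 7.16% with the whole region searched), with 6.80% (4.45 to 10.3%) in T0-LPS only and 7.83% (6.25 to 9.76%) in LPS only regions. The CTCF consensus was in 9 of 422 (2.13%, 1.13 to 4.00%) against 0.851%, while among all regions with scores below 200 it was 1.51% and in the opposite set 1.62% (1.30 to 2.01%). Median GC content of the central 200 bp was 53% in the selected regions, 49.5% in the opposite set and 52% in all regions.

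**Figure D5:**
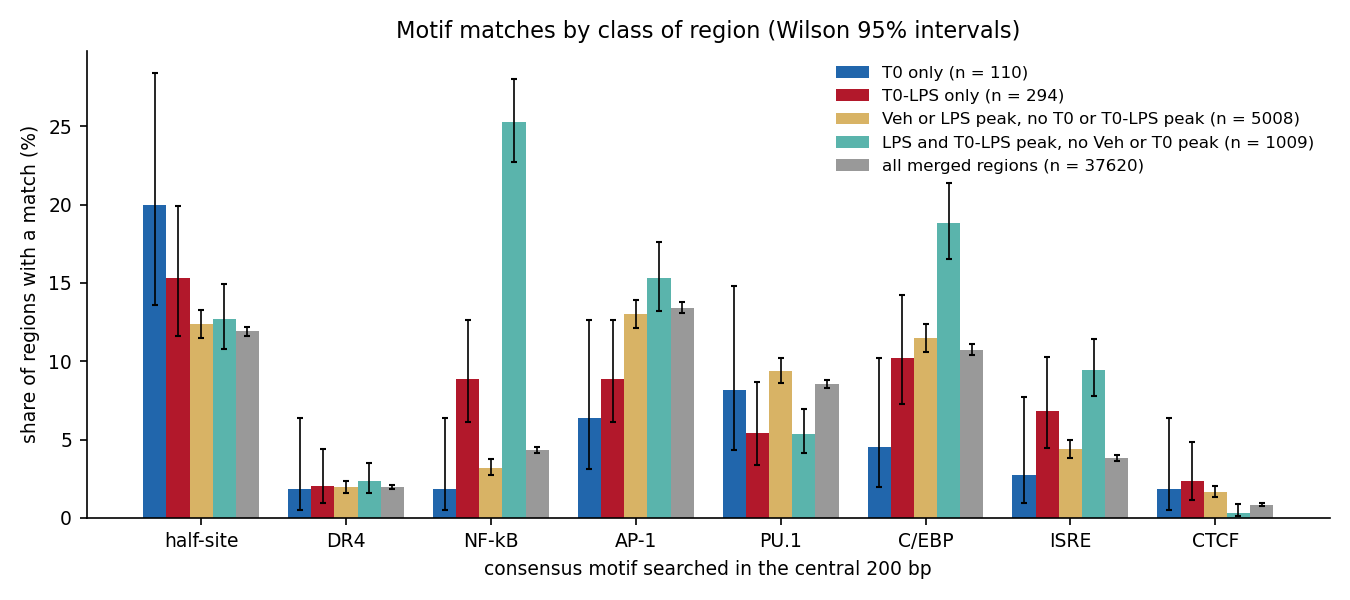
Share of regions (%) with a match to each consensus in the central 200 bp, with Wilson 95% intervals, for T0 only, T0-LPS only, the opposite set, regions with an LPS and a T0-LPS peak only, and all regions. For NF-kB the T0-LPS only regions (8.84%) lay between all regions (4.31%) and the regions with an LPS and a T0-LPS peak only (25.3%).

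A few genes gave their name to several of the selected regions. Rreb1, a zinc finger gene, held 3 in its introns, of which 1 was T0 only and 2 T0-LPS only. Pstpip1, which encodes a protein bound to the actin cytoskeleton, held 2 T0-LPS only regions in introns, and a T0 only region lay 14541 bp upstream of its TSS. In all, 47 of the 424 regions had another selected region within 100 kb. No like count was made for the opposite set or for all regions, so clustering was not tested. By chromosome, the selected regions were between 0.703% of the regions on X and 1.46% of those on chromosome 11. Chromosome Y, with 9 regions in all, held none.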

How the data were processed

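ATAC-seq libraries of 4 groups (Veh, T0, LPS and T0-LPS, 4 libraries each) were analysed as 1 peak list per group. The authors trimmed adaptors with cutadapt, aligned the reads with Bowtie2, removed duplicates with samtools, called peaks with MACS2 on the pooled libraries and retained those at H3K27ac or H3K4me2 enhancers. Per the submitters' notes, the build was mm10. The deposited lists give position, a numbered name and a score per peak, the authors' peak caller score. It grows with depth, so scores of different lists are given side by side and were ranked within a list or as a percentile of it, except that score minimums were the same for all lists.

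Peaks sharing at least 1 bp were merged. A missing peak number, counted between the kept peaks on either side of a region, was read as a peak removed by the authors' filter. TSSs, genes and untranslated regions came from GENCODE vM21 (basic), and sequences from RefSeq's GRCm38. A region took the name of the gene that held its midpoint, otherwise of the nearest TSS. Motifs were exact consensus matches unless mismatches are given, on both strands of the central 200 bp, and narrow regions were scanned beyond their ends. Intervals were Wilson 95% (scipy 1.17.1). Named were the 10 highest-scoring regions per class, those near genes of 9 lists (136 genes), those with a DR4 of at most 1 mismatch, and those nearest the overlap limit. Further regions were named outside this rule as examples, among them some at TSSs, some with an NF-kB match and those of genes with several regions. The functions for merging, peak numbers, motifs and intervals were tested on simulated data. The rule, the members and the gene lists were chosen with earlier results of these data known. Alternatives covered the merging distance, score minimum, list length, windows and mismatches. Results for 2 listed genes are not reported here.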

Additional observations from a re-analysis of the deposited data

How the results depend on the processing

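Counts of selected regions kept within 1.5 times their value when merging required 50 bp of overlap (431) or joined peaks up to 100 bp (400) or 500 bp apart (292). A minimum score of 100 in T0 or T0-LPS left 180 (51 T0 only, 121 T0-LPS only and 8 both), and a minimum of 200 left 32 (8, 21 and 3). Here a region of the class both counted as T0 only or T0-LPS only where just 1 of its scores reached the minimum. Lists of equal length gave 1630 (754, 643 and 233). Without regions where the Veh or LPS numbering lacked a peak, 213 remained (54, 151 and 8). These settings keep or drop peaks by construction. The TSS share was 25.6% with a window of 500 bp and 45.7% with 2.5 kb, where all regions had 32.7% and 45.8%. DR4 was in 0.711% with up to 1 mismatch and 16.8% with up to 3, against 0.175% and 15.3% of all regions. NF-kB was in 4.72% of the 213 regions without a missing number. LXR genes with a selected region numbered 1 with a window of 10 kb, and 3 without regions at missing numbers, where the Abcg1 and Smpdl3a regions dropped out. Inflammatory genes with one numbered 4 with a window of 200 kb, where 12.6% of all protein-coding genes had one. With the whole region scanned, the members' shares stayed within their intervals, but the difference from all regions turned for the half-site (17.8% against 23.6%), DR4 (2.37% against 4.47%), NF-kB (8.06% against 8.46%) and the interferon response element (5.92% against 7.16%). No paired analysis was possible because each list pools the 4 libraries of its group. The unknown depth limits every count of absent peaks.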
